A study of Mus musculus with 48 samples.

Results

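A set of 10 genes that move iron through cells or defend them against its oxidative chemistry was followed through the dentate gyrus after kainate: the heme oxygenase gene Hmox1, the ferritin genes Fth1 and Ftl1, the transferrin receptor Tfrc, the exporter Slc40a1, the ferroxidase Cp, the cystine carrier Slc7a11, the quinone reductase Nqo1 and the glutathione peroxidases Gpx1 and Gpx4. They were chosen by name, and each matched 1 of the 55357 rows of the count table. All 10 were among the 21390 genes that passed the filter on low counts. After kainate, Hmox1, Ftl1, Gpx1 and Cp were upregulated in the injected hemisphere at day 3 and day 7, while Tfrc was downregulated. Fth1, which encodes the other ferritin subunit, did not pass the test at any time.

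The animals were wild-type C57BL/6J mice aged 6 to 8 weeks in the deposited design text, whereas the methods of the study give a somewhat higher age, with 2 males and 2 females in each group. Each mouse received kainate, an agonist of glutamate receptors that triggers status epilepticus (SE), or saline into the hippocampus of a single hemisphere, and was sampled 3, 7 or 14 days later. The dorsal dentate gyrus was microdissected on both sides, and the ipsilateral side is called the epileptogenic zone (EZ) and the contralateral side the peri-ictal zone (PIZ). The 24 mice gave 48 poly-A RNA libraries in 12 groups of 4, and an EZ and a PIZ library from the same mouse carry the same mouse number. Saline animals also had a needle passed into the tissue, so the kainate effect is measured over that injury. The kainate model injures the injected hippocampus itself, with loss of neurons and gliosis there, so the dissected tissue does not hold a fixed mix of cells.

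Iron enters brain cells mainly as transferrin bound to the transferrin receptor, is stored in shells of ferritin heavy and light chains, and leaves through ferroportin, the product of Slc40a1, with the help of ferroxidases such as ceruloplasmin, the product of Cp. Heme oxygenase 1 breaks heme into biliverdin, carbon monoxide and free iron. Free ferrous iron reacts with peroxides to give radicals that attack membrane lipids. Glutathione peroxidases remove these peroxides, using glutathione built from the cystine that the Slc7a11 carrier brings in, and Nqo1 reduces quinones under control of the transcription factor NRF2. Microglia and macrophages are known to take up and store iron in injured brain tissue.

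Several of these mRNAs carry iron-responsive elements, short stem-loops in the untranslated regions to which iron regulatory proteins bind when iron is scarce. Binding at the 5′ end blocks translation of ferritin and ferroportin mRNA, and binding at the 3′ end keeps the Tfrc mRNA from being degraded. The sequences are shown because they separate the genes whose mRNA level iron is known to set through stability from those it controls mainly at translation. A search of the canonical transcripts of the tested protein-coding genes (a C, 5 bases, CAGTG, a base other than G, and 5 bases that pair with the first 5 by Watson-Crick or G-U pairs, on the transcript's own strand) found a match in 5′ untranslated regions of 19 of 15165 genes (0.125%) and in 3′ untranslated regions of 83 of 15266 genes (0.544%). Of the 10 genes, Fth1, Ftl1 and Slc40a1 had 1 match each at the 5′ end, and Tfrc had 4 matches at the 3′ end. The 6 bases of the loop are in capitals in these stretches of 28 bases.
Fth1, 5′: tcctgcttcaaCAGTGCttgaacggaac
Ftl1, 5′: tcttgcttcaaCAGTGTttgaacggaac
Slc40a1, 5′: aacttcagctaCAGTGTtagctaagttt
Tfrc, 3′, site 1: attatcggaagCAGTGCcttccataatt
Tfrc, 3′, site 2: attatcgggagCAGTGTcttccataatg
Tfrc, 3′, site 3: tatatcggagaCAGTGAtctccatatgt
Tfrc, 3′, site 4: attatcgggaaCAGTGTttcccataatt
In GRCm39 these lie at chr19:9960097-9960124 on the plus strand for Fth1, chr7:45109203-45109230 on the minus strand for Ftl1 and chr1:45964625-45964652 on the minus strand for Slc40a1. The Tfrc sites lie on the plus strand at chr16:32450038-32450065, chr16:32450417-32450444, chr16:32450482-32450509 and chr16:32450529-32450556. A match describes these letters only, and no binding was measured. The genes themselves span chr8:75820241-75827217 (Hmox1), chr19:9957911-9962462 (Fth1), chr7:45107367-45109308 (Ftl1), chr16:32427556-32451612 (Tfrc), chr1:45947211-45965683 (Slc40a1), chr3:20011090-20063930 (Cp), chr3:49846975-50398070 (Slc7a11), chr8:108113835-108129934 (Nqo1), chr9:108216102-108217546 (Gpx1) and chr10:79883000-79892273 (Gpx4).

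Library totals ran from 17762656 to 25712975 counts. Levels are given as CPM, counts relative to the library total, scaled by the TMM method. A gene was a DEG (differentially expressed) where its fold change exceeded 1.5 and its adjusted p was below 0.01, from 1 edgeR quasi-likelihood fit over all 48 libraries with Benjamini-Hochberg adjustment over the 21390 genes tested. None of the 6 granule cell or 5 neuronal markers was at 0 in any library. This does not test the dissection, since Ttr of choroid plexus, Col1a1 of fibroblasts and Hba-a1 of blood were also never at 0. The markers of other cells moved with kainate. The summed level of 8 microglial markers (all detected in every library) was 1461 to 2527 CPM in the kainate EZ at day 3 against 540 to 910 in saline, 1779 to 6609 against 465 to 513 at day 7, and 527 to 3251 against 424 to 452 at day 14. In the PIZ it was 1019 to 1235 against 322 to 438 CPM at day 3, 442 to 852 against 335 to 426 at day 7, and 375.5 to 477 against 341 to 389 at day 14. The 5 neuronal markers summed to 1265 to 2356 CPM in the kainate EZ at day 3 against 3220.2 to 4177 in saline, and to 951 to 2248 against 3376 to 4546 at day 7. In the PIZ they summed to 2848 to 3163 against 3271 to 4566 CPM at day 3, without overlap. At day 7 the PIZ sums overlapped, at 3073.5 to 4304.5 against 3692 to 4369 CPM. The 5 hemoglobin and erythroid markers, a sign of blood in the tissue, held no DEG in any of the 6 kainate comparisons by edgeR, with 2 of 5 at an unadjusted p under 0.05 in the day 3 PIZ and likewise in the day 7 PIZ. Their sum was 111 to 252 CPM in the kainate EZ at day 3 and 177 to 213 in saline. Other cell types' markers moved as well. Of 7 astrocyte markers, 3 rose and 2 fell in the EZ at day 3, 4 rose at day 7, 2 rose at day 14 (Gfap 4.62-fold and Aqp4 2.30-fold), and 3 rose in the day 3 PIZ, where Gfap was 12.6-fold higher (9.89-fold in the EZ at day 7). Their sum was 8507 to 10220 CPM in the kainate EZ at day 3 against 6598 to 9454 in saline, 11619 to 13157 against 5384 to 6033 at day 7, 5793 to 11893 against 5497 to 6169 at day 14, and 9062 to 10130 against 4818 to 6346 in the day 3 PIZ. In the EZ at day 3 and day 7, 3 of 6 monocyte and granulocyte markers rose (Ms4a7 26.3-fold and 53.3-fold), as did 3 of 6 endothelial markers (Cldn5, Pecam1 and Cdh5, by 1.78-fold to 2.54-fold) and 4 of 5 fibroblast markers, and 2 of 6 granule cell markers fell. The monocyte and granulocyte markers summed to 18.5 to 69.9 CPM in the kainate EZ at day 3 against 8.39 to 13.1 in saline, and to 14.9 to 73.8 against 8.68 to 11.2 at day 7, and S100a8, S100a9 and Plac8 were at 0 in 9, 10 and 14 of the 48 libraries. In the day 3 PIZ none of the monocyte and granulocyte, endothelial or fibroblast markers was called by edgeR, with 2 of 6, 2 of 6 and 1 of 5 at an unadjusted p under 0.05. Of 6 oligodendrocyte markers 2 rose in the EZ at day 7, and of 3 choroid plexus markers tested 1, Kl, fell in the EZ at day 3 and day 7. Calb1, a granule cell marker, was at 0.193 of its saline level in the day 3 PIZ. Of the 6 granule cell markers the others were not called there. Relative to saline, Dsp was at 0.265, Pdzd2 at 0.902, Prox1 at 0.954, Stxbp6 at 0.998 and C1ql2 at 2.03. These genes were named after their values were seen, and the part of any of these cell types in the results was not tested. Fewer cells of a type and less RNA per cell cannot be told apart in such tissue libraries.

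In saline tissue the ferritin heavy chain stood far above the other 9 genes. Per kilobase of the canonical transcript, the level over the 24 saline libraries was 1361 ± 145 CPM per kb for Fth1 (mean ± SD). Ftl1 at 119 ± 19.7 and Gpx4 at 119 ± 12.8 CPM per kb came next and did not differ beyond their spread. Tfrc at 31.1 ± 4.36 and Gpx1 at 28.03 ± 3.68 CPM per kb overlapped in the same way. Slc7a11 (4.77 ± 0.981), Slc40a1 (4.08 ± 0.507), Hmox1 (3.63 ± 1.89) and Cp (3.41 ± 0.727 CPM per kb) formed a low group in which each overlapped the next, and Nqo1 was lowest at 1.33 ± 0.169. In the kainate EZ at day 3 Hmox1 had moved from the eighth to the fifth place of this order, at 32.6 ± 6.36 CPM per kb (n = 4), above Tfrc at 18.2 ± 0.672 with no overlap between the libraries.

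**Figure D1:**
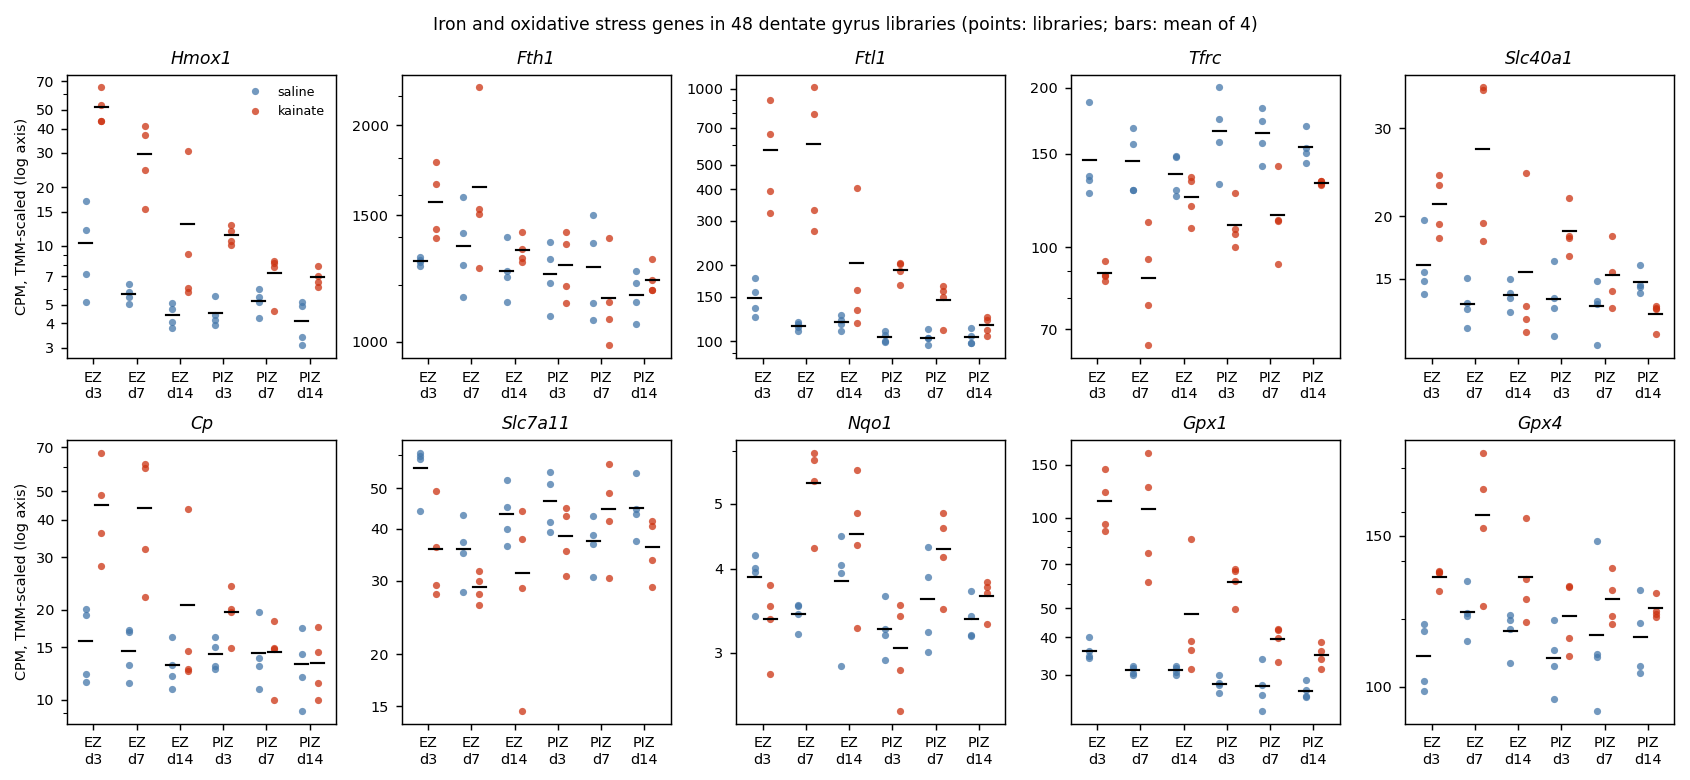
Level of each of the 10 genes in every library, in TMM-scaled CPM on a log axis (points, blue for saline and red for kainate; black bars, mean of 4), by region and day after injection. Hmox1, Ftl1, Gpx1 and Cp rise in the kainate EZ at day 3 and day 7, and at day 14 a single kainate library of the EZ stays high.

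In the EZ at day 3, 4 of the 10 genes were upregulated and 1 was downregulated, beside 16.1% and 8.61% of all genes tested. At day 7 the counts were 6 up and 1 down, beside 20.6% and 11.9% of all genes. At day 14 only Hmox1 was upregulated, beside 2.32% of all genes. In the PIZ at day 3, 2 genes were upregulated and 1 downregulated, beside 7.12% and 1.57% of all genes. None was called in the PIZ at day 7 or day 14, where 0.201% and 0.014% of all genes were called in either direction. At an unadjusted p under 0.05, 2 of the 10 genes passed at day 7 and 1 passed at day 14, beside 14.5% and 5.97% of all genes. DESeq2 called none at either time. With limma-voom and sample weights, which count less the libraries that lie far from their group (weighted limma-voom), Tfrc and Gpx1 were called at day 7 and none at day 14. Without the weights, a fit added after seeing the data, limma-voom called none at either time. No share of all genes is given for DESeq2 or limma-voom. Counting instead the genes whose 4 kainate libraries did not overlap the 4 saline libraries gave 7 of 10 in the EZ at day 3 (42.4% of all genes), 7 at day 7 (43.8%) and 1 at day 14 (8%), and in the PIZ 5 at day 3 (30.7%), 1 at day 7 (12.9%) and 4 at day 14 (7.18%). The median log2 fold change of the 10 genes was 0.36 in the EZ at day 3 and 0.84 at day 7, beside 0.03 and 0.01 over all genes.

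**Figure D2:**
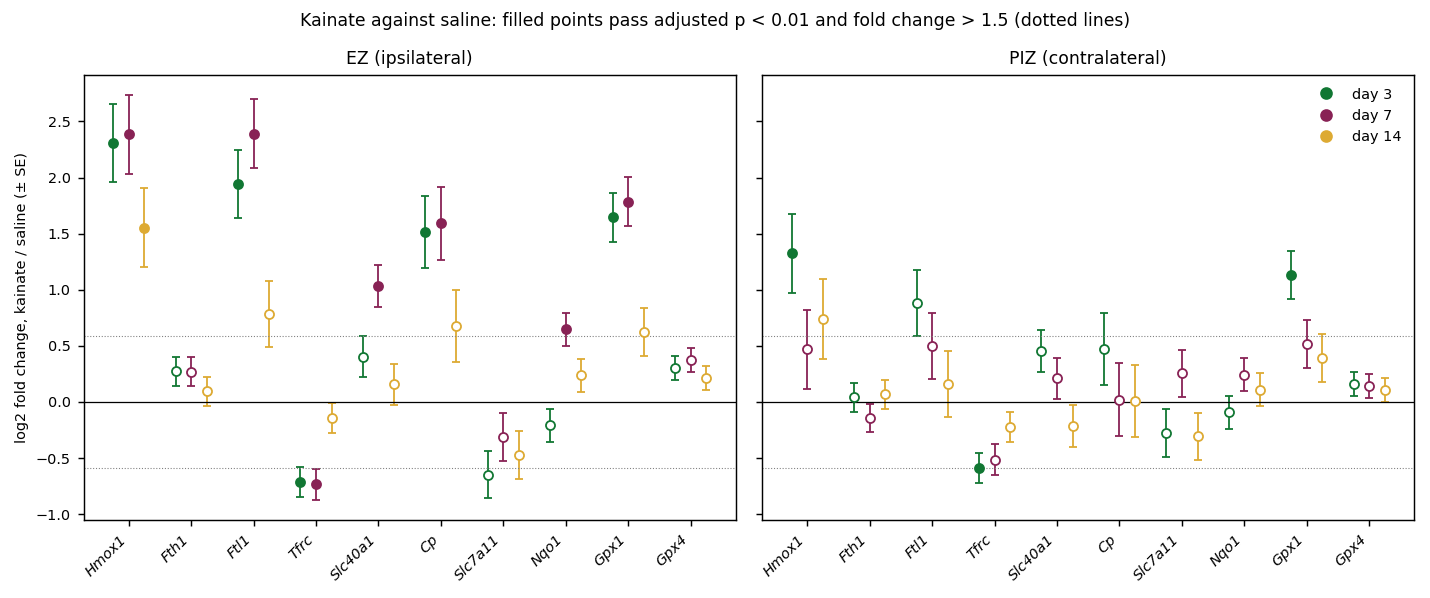
Log2 fold change of kainate over saline with its SE for the 10 genes, in the EZ (left) and the PIZ (right) at day 3, 7 and 14, with 4 libraries in each group; filled points passed the test and dotted lines mark a fold change of 1.5. Hmox1 reached 2.31 and 2.39 in the EZ at day 3 and day 7, and Tfrc was the gene called below 0.

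Hmox1, the inducible enzyme that frees iron from heme, had the highest fold change of the 10 genes in the EZ at day 3. The 4 kainate libraries held 44, 65.1, 43.8 and 52.6 CPM and the 4 saline libraries 5.17, 17.1, 7.19 and 12.1 CPM. The groups did not overlap, and the saline libraries themselves differed by more than in any other saline group. The log2 fold change was 2.31 ± 0.345 (SE; edgeR adjusted p = 2.03e-06). At day 7 Hmox1 measured 41.4, 15.4, 24.6 and 37.04 CPM after kainate against 5.05, 6.38, 5.78 and 5.46 CPM after saline, a log2 fold change of 2.39 ± 0.35 (edgeR adjusted p = 6.64e-07). The levels after kainate were thus spread more widely than the levels after saline, and every kainate library was above every saline library. At day 14 the kainate libraries held 6.05, 30.9, 5.79 and 9.11 CPM and the saline libraries 3.81, 4.75, 4.09 and 5.07 CPM. Mouse 27 gave the 30.9 CPM. The log2 fold change of 1.55 ± 0.35 was called with all 4 mice (edgeR adjusted p = 0.00526) and was 0.66 without mouse 27 (edgeR adjusted p = 0.90); leaving out mouse 24, 28, 31 or 39 also ended the call, with adjusted p between 0.019 and 0.0301. The call was also lost by weighted limma-voom (log2 fold change 0.57, adjusted p = 0.32), in which mouse 27 had the lowest weight of the 48 libraries (0.0856), by limma-voom without weights (1.21, adjusted p = 0.18) and in a fit of the compared groups alone (1.56, adjusted p = 0.56).

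In the PIZ, Hmox1 was called at day 3 alone. It measured 12.9, 10.1, 11.9 and 10.6 CPM after kainate and 3.95, 4.42, 5.55 and 4.19 CPM after saline at that time, with no overlap and a log2 fold change of 1.33 ± 0.35 (edgeR adjusted p = 0.00539). The call was lost without any of 6 mice (18, 29, 30, 41, 42 or 44), where the log2 fold change stayed between 1.26 and 1.36 and the adjusted p was at most 0.0215, and by limma-voom without weights (1.32, adjusted p = 0.0121). At day 7 mouse 21 held 4.62 CPM while the other 3 kainate libraries held 7.76 to 8.36 CPM, and the log2 fold change of 0.47 was not called (edgeR adjusted p = 0.57). At day 14 all 4 kainate libraries (6.16 to 7.88 CPM) were above the saline libraries (3.08 to 5.13 CPM), but the log2 fold change of 0.74 did not pass the test (edgeR adjusted p = 0.81).

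The ferritin light chain was upregulated in the EZ at day 3 and day 7. Ftl1 measured 394, 904, 663 and 320.1 CPM in the kainate EZ at day 3 against 125, 178, 135 and 156 CPM in saline. It measured 1010.4, 274, 331 and 791 CPM against 113, 119, 116 and 110.0 CPM at day 7. The groups were separate at both times, and the kainate libraries differed far more among themselves than the saline libraries did. The log2 fold changes were 1.94 ± 0.30 at day 3 and 2.39 ± 0.31 at day 7 (edgeR adjusted p = 3.37e-06 and 6.76e-08). At day 14 mouse 27 held 404 CPM and the other 3 kainate libraries 118 to 159.8 CPM, next to 109 to 127 CPM in saline, and the log2 fold change of 0.78 was not called (edgeR adjusted p = 0.13). In the PIZ at day 3 the kainate libraries held 167 to 205 CPM and the saline libraries 99.1 to 109.7 CPM without overlap, yet the log2 fold change of 0.88 ± 0.29 did not pass (edgeR adjusted p = 0.0262). Ftl1 was called there by weighted limma-voom (log2 fold change 0.87; 0.88 and not called without weights) and in a fit of the compared groups alone (0.88), each with an adjusted p at or below 2.02e-05.

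Fth1, the heavy chain with the ferroxidase centre, was not called in any comparison. Its EZ libraries held 1433, 1777, 1656 and 1393 CPM after kainate and 1300.3, 1314, 1292 and 1274 CPM after saline at day 3. The groups did not overlap, but the log2 fold change was 0.27 ± 0.13 (edgeR adjusted p = 0.0769). Over the other 5 comparisons it lay between -0.14 and 0.27, and no adjusted p was below 0.07. The ratio of Fth1 to Ftl1 per length was lower after kainate in every EZ library of day 3 and day 7, as a description with no test. It was 2.05 to 4.54 against 7.69 to 10.9 in saline at day 3, and 2.01 to 5.73 against 10.1 to 14.7 at day 7. In the PIZ the ratio was 6.19 to 7.50 against 11.4 to 13.6 at day 3, and 7.48 to 9.32 against 11.5 to 14.0 at day 7, again without overlap. At day 14 the ratios overlapped in both regions.

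The ferritin light chain has many processed copies in the mouse genome, among which short reads are split. Ftl1-ps1 matched Ftl1 at 99.6% over 910 bases and collected 20 counts for every 100 of Ftl1. The 6 copies that matched Ftl1 on the same strand over at least 500 bases at 95% identity or more together held 40.1 to 46.7 counts for every 100 of Ftl1 across the 48 libraries, so the levels and ratios given for Ftl1 leave these out. With them added, the Fth1 to Ftl1 ratio was 1.41 to 3.16 against 5.48 to 7.63 in the EZ at day 3 and 1.40 to 4.01 against 7.12 to 10.3 at day 7, and the groups were apart in the PIZ at both times as well. Gpx4-ps2 collected 24.3 counts for every 100 of Gpx4. Adding the counts of the copies that met this cut to the parent gene (a choice made after seeing the data) gave Ftl1 log2 fold changes of 1.96 and 2.41 in the EZ at day 3 and day 7, with the same calls. Fth1-ps held 0.395 counts for every 100 of Fth1.

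Tfrc, through which cells take up transferrin-bound iron, went the other way. It measured 94.0, 88.1, 88.8 and 86.3 CPM in the kainate EZ at day 3 and 188, 134, 127 and 136 CPM in saline. At day 7 it measured 65.2, 94.8, 112 and 77.7 CPM against 168, 128, 128 and 156 CPM. Every kainate library lay below every saline library at both times, with log2 fold changes of -0.71 ± 0.14 and -0.73 ± 0.14 (edgeR adjusted p = 5.09e-05 and 1.97e-05). The day 3 call was lost without mouse 18, whose saline library held the 188 CPM (log2 fold change -0.57, below the fold threshold), and the day 7 call in a fit of the compared groups alone (-0.74, adjusted p = 0.012). At day 14 the libraries overlapped at 109 to 136 CPM after kainate and 125 to 149 CPM after saline, with a log2 fold change of -0.15 (edgeR adjusted p = 0.60). Tfrc was also downregulated in the PIZ at day 3, from 131 to 200.4 CPM in saline to 100.2 to 127 CPM after kainate (log2 fold change -0.59 ± 0.13, edgeR adjusted p = 0.00143). That value sits just past the fold threshold, and leaving out mouse 18, 30, 41, 42 or 44 brought it to between -0.49 and -0.58, below it, as did limma-voom with (-0.53) and without weights (-0.58). At day 7 the kainate PIZ libraries (93.0 to 142.2 CPM) lay below the saline libraries (142.5 to 183 CPM), by a narrow gap, and the log2 fold change of -0.51 was not called (edgeR adjusted p = 0.0422). At day 14 the PIZ libraries were again apart, at 131 to 133 against 144 to 169 CPM, and not called (log2 fold change -0.22, edgeR adjusted p = 0.92).

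Of the export genes, Cp was upregulated in the EZ at day 3 and day 7 and Slc40a1 at day 7. Cp, the ceruloplasmin gene, measured 36.2, 67.2, 48.7 and 28.04 CPM after kainate at day 3 against 12.2, 20.1, 11.5 and 19.3 CPM after saline. At day 7 it measured 59.9, 22.0, 32.1 and 61.7 CPM against 16.8, 13.1, 17.1 and 11.4 CPM. The groups were apart at both times, with log2 fold changes of 1.51 ± 0.32 and 1.59 ± 0.32 (edgeR adjusted p = 2.07e-04 and 7.70e-05). In the PIZ Cp was not called at any day, with log2 fold changes of 0.47, 0.02 and 0.01 at day 3, 7 and 14. Mouse 27 held 43.5 CPM in the EZ at day 14, and the other 3 kainate libraries (12.5 to 14.5 CPM) lay within the saline range of 10.9 to 16.2 CPM.

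Slc40a1, the ferroportin gene, was called in the EZ at day 7 alone. Its kainate libraries held 36.3, 19.4, 17.9 and 35.8 CPM there and its saline libraries 13.4, 15.1, 13.1 and 11.9 CPM. The groups did not overlap, and the log2 fold change was 1.03 ± 0.18 (edgeR adjusted p = 1.29e-05); in a fit of those 8 libraries alone it was 1.025 with an adjusted p of 0.0114 and not called. At day 3 it was 0.40 (edgeR adjusted p = 0.0647), with 18.1 to 24.2 CPM after kainate and 14.0 to 19.7 CPM after saline. In the PIZ at day 14 all 4 kainate libraries (11.6 to 13.2 CPM) lay below the saline libraries (14.03 to 15.99 CPM), and the log2 fold change of -0.21 was not called (edgeR adjusted p = 0.97).

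Of the glutathione peroxidases Gpx1 was called and Gpx4 was not. Gpx1, the cytosolic enzyme that reduces hydrogen peroxide, measured 94.9, 145, 122 and 90.2 CPM in the kainate EZ at day 3 against 34.5, 40.1, 33.99 and 35.9 CPM in saline. At day 7 it measured 164, 61.0, 76.4 and 126 CPM against 31.6, 30.4, 32.2 and 29.99 CPM. The saline libraries were tightly grouped and no kainate library reached them, with log2 fold changes of 1.65 ± 0.22 and 1.79 ± 0.22 (edgeR adjusted p = 3.09e-07 and 4.06e-08), the lowest adjusted p among the 10 genes at both times. PIZ libraries at day 3 measured 66.2, 49.8, 67.3 and 61.6 CPM against 27.7, 26, 28.1 and 29.9 CPM, a log2 fold change of 1.13 ± 0.22 (edgeR adjusted p = 2.18e-04), and this call held when each mouse was left out in turn. In the PIZ at day 7 the libraries overlapped, at 33 to 42.5 CPM after kainate and 22.8 to 33.7 CPM after saline. Gpx1 was not called there by edgeR but was by weighted limma-voom (0.62, limma-voom adjusted p = 2.48e-04). At day 14 Gpx1 was not called in the EZ (0.62, edgeR adjusted p = 0.0875) or the PIZ (0.39, edgeR adjusted p = 0.89).

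Gpx4, which repairs oxidised lipids within membranes and so restrains ferroptosis, was not called in any comparison. Its libraries held 129 to 136 CPM after kainate and 98.9 to 118 CPM after saline in the EZ at day 3, without overlap, with a log2 fold change of 0.31 ± 0.11 (edgeR adjusted p = 0.0172). At day 7 the log2 fold change was 0.38 ± 0.11; its adjusted p of 0.00297 passed but its fold change of 1.297 stayed below 1.5. In the PIZ its log2 fold change lay between 0.11 and 0.16.

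Slc7a11, the cystine carrier, was lower after kainate in the EZ at day 3, at 29.3, 49.3, 27.9 and 36.2 CPM against 44.1, 59.8, 60.8 and 58.8 CPM. The groups overlapped through the kainate library of mouse 38 and the saline library of mouse 18. The log2 fold change of -0.65 ± 0.21 missed the threshold (edgeR adjusted p = 0.0111). It was called without mouse 18 (-0.75) or mouse 38 (-0.84), with RLE size factors (-0.67), and by DESeq2 (-0.67) and limma-voom with (-0.92) and without weights (-0.67). In the other 5 comparisons it lay between -0.47 and 0.25 with no call.

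Nqo1 was the least abundant of the 10 genes and was called in the EZ at day 7 alone. In the EZ it measured 2.79, 3.79, 3.52 and 3.37 CPM after kainate and 3.40, 3.96, 4.01 and 4.19 CPM after saline at day 3, which overlapped (log2 fold change -0.21, edgeR adjusted p = 0.25). At day 7 it measured 5.96, 5.41, 4.29 and 5.81 CPM against 3.52, 3.43, 3.20 and 3.53 CPM, which did not overlap (log2 fold change 0.65 ± 0.15, edgeR adjusted p = 2.61e-04). Its day 7 effect exceeded its day 3 effect by 0.86 on the log2 scale (edgeR adjusted p = 0.0378) and was called by DESeq2 and weighted limma-voom but not by edgeR.

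Whether the EZ responded more than the PIZ was tested as the difference of the kainate effects within a day. At day 7, 3 of the 10 genes had a larger effect in the EZ, beside 7% of all genes, and none a smaller effect. These were Hmox1 (difference of log2 fold changes 1.92, edgeR adjusted p = 0.00557), Ftl1 (1.89, 0.00251) and Gpx1 (1.27, 0.00387). Since the 2 libraries of a mouse are paired, the same test was run with mouse as a replicate block: Hmox1 (1.84, edgeR adjusted p = 0.00681) and Ftl1 (1.69, 0.00749) were called again, Gpx1 was not (1.15, 0.0142), and Cp was (1.47, 0.00419; without the block 1.57, 0.011). Leaving out mouse 20, 21, 35 or 89 left none of the 10 genes called, with differences of 1.55 to 1.87 for Hmox1, 1.42 to 1.89 for Ftl1 and 0.91 to 1.31 for Gpx1 on the log2 scale, lowest for each without mouse 21, a kainate mouse. Leaving out mouse 33 ended the call of Hmox1 (1.905, edgeR adjusted p = 0.0155) and kept those of Ftl1 and Gpx1. Leaving out mouse 34 left Ftl1 alone, and leaving out mouse 26 gave 5 genes. At day 3 none was called, beside 0.0655% of all genes, with 3 of 10 at an unadjusted p under 0.05 (17.9% of all genes), none called by DESeq2 or by limma-voom without weights, and Ftl1, Cp and Gpx1 called by weighted limma-voom. At day 7 limma-voom without weights called Ftl1 and Gpx1. The 7% and 0.0655% are shares of the full edgeR fit. No share of all genes is given for the other methods, the block or the fits without a mouse. At day 14 none was called, beside 0% of all genes, and none reached an unadjusted p under 0.05 (7.3% of all genes).

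In time, no gene of the 10 changed its kainate effect by the edgeR test. Between day 3 and day 7 in the EZ 0.145% of all genes did, with 2 of the 10 genes at an unadjusted p under 0.05 (12% of all genes), Nqo1 called by DESeq2, and Slc40a1 and Nqo1 by weighted limma-voom. Between day 7 and day 14 in the EZ 0.271% of all genes did. There 9 of the 10 genes had a negative change, 5 had an unadjusted p under 0.05 (33.1% of all genes), and the lowest adjusted p was 0.0171 for Ftl1, whose effect fell by 1.61 on the log2 scale. DESeq2 called Ftl1 and Gpx1 for this step and weighted limma-voom 6 genes (Hmox1, Ftl1, Tfrc, Slc40a1, Cp and Gpx1), while limma-voom without weights called none for either step. EdgeR called 5 without mouse 27 (Hmox1, Ftl1, Slc40a1, Cp and Gpx1), 4 without mouse 26 (Ftl1, Tfrc, Slc40a1 and Gpx1) and 3 without mouse 23 (Ftl1, Slc40a1 and Gpx1). The 0.145% and 0.271% are shares of the full edgeR fit. No share of all genes is given for the other methods or for fits without a mouse. In the PIZ the shares were 0.0234% from day 3 to day 7 and 0% from day 7 to day 14, with 1 and none of the 10 genes at an unadjusted p under 0.05 (10.6% and 3.08% of all genes) and none called by DESeq2 or weighted limma-voom.

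The saline mice measure the injection itself, since their ipsilateral side also received a needle. None of the 10 genes differed between saline EZ and saline PIZ at day 3, day 7 or day 14, beside 0.0281%, 0% and 0% of all genes by edgeR. DESeq2 and weighted limma-voom called none either, and 1 of the 10 genes at day 3 (6.17% of all genes) and none later had an unadjusted p under 0.05. That gene was Hmox1, at 5.17 to 17.1 CPM in the saline EZ and 3.95 to 5.55 CPM in the saline PIZ at day 3, a log2 difference of 1.19 (edgeR adjusted p = 0.37). Of the 7 astrocyte markers, Gfap was called there, at 6.14-fold higher in the saline EZ (edgeR adjusted p = 0.00214), and none was called at day 7 or day 14.

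**Figure D3:**
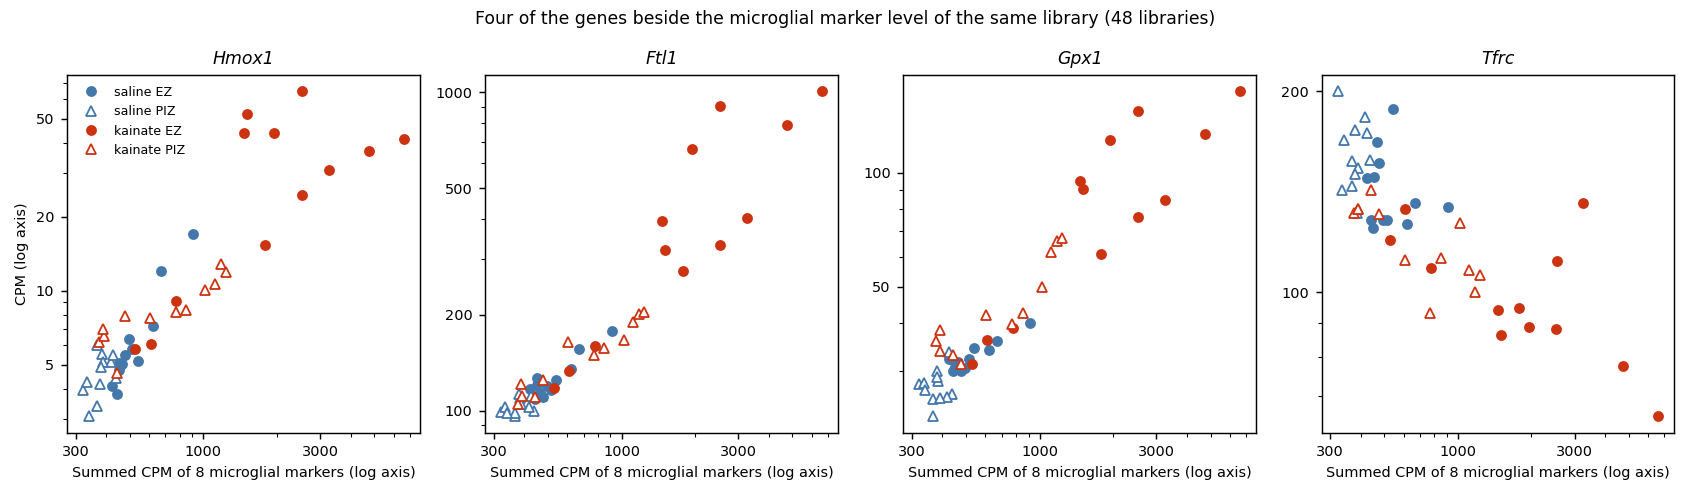
CPM of Hmox1, Ftl1, Gpx1 and Tfrc against the summed CPM of 8 microglial markers in the same library (both axes log; 48 libraries; blue saline, red kainate; circles EZ, triangles PIZ). Hmox1, Ftl1 and Gpx1 rise along the microglial level (Pearson r of log2 values 0.906, 0.953 and 0.946) and Tfrc falls along it (-0.803).

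The levels of some of these genes went with the microglial markers across libraries. Over the 48 libraries, which share their groups and their depth range, the Pearson r of log2 CPM with the log2 microglial sum was 0.953 for Ftl1, 0.946 for Gpx1, 0.906 for Hmox1, 0.884 for Cp and 0.882 for Slc40a1. It was 0.508 for Nqo1, 0.674 for Gpx4, 0.63 for Fth1, -0.449 for Slc7a11 and -0.803 for Tfrc. Within the 24 saline libraries alone it was 0.922 for Ftl1, 0.861 for Hmox1 and 0.802 for Gpx1. It was 0.515 for Nqo1, and smaller in size than over all libraries for Slc40a1 (0.538), Cp (0.397), Fth1 (0.389) and Tfrc (-0.408). For Gpx4 (-0.108) and Slc7a11 (0.452) it had the opposite sign to that over the 48 libraries. The ratio of a gene to the markers varied between groups. Hmox1 measured 22.5 to 35 CPM for every 1000 CPM of microglial markers in the kainate EZ at day 3, above the 9.56 to 18.8 of saline, and 6.27 to 9.71 at day 7, below the 10.9 to 12.9 of saline. Gpx1 measured 57.5 to 65.0 and 44.04 to 63.9 on this scale at day 3, which overlapped, and 24.9 to 34.3 against 61.6 to 68.0 at day 7. The part of the microglial level in these results was not tested.

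Among genes outside all the lists, the gene most like each member over the 48 libraries was Ptx3 for Hmox1 (Pearson r 0.966), Pfn1 for Fth1 (0.871), Vamp2 for Tfrc (0.915), Scamp2 for Slc40a1 (0.92), Tgm2 for Cp (0.966), St8sia4 for Slc7a11 (0.738), Naaa for Nqo1 (0.829) and Lgmn for Gpx1 (0.981). For Ftl1 and Gpx4 it was a near-identical copy, Ftl1-ps1 (0.998) and Gpx4-ps2 (0.947). Among the members themselves Ftl1 and Gpx1 were most alike (0.974), followed by Hmox1 with Ftl1 and with Gpx1 (0.94 each).

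**Figure D4:**
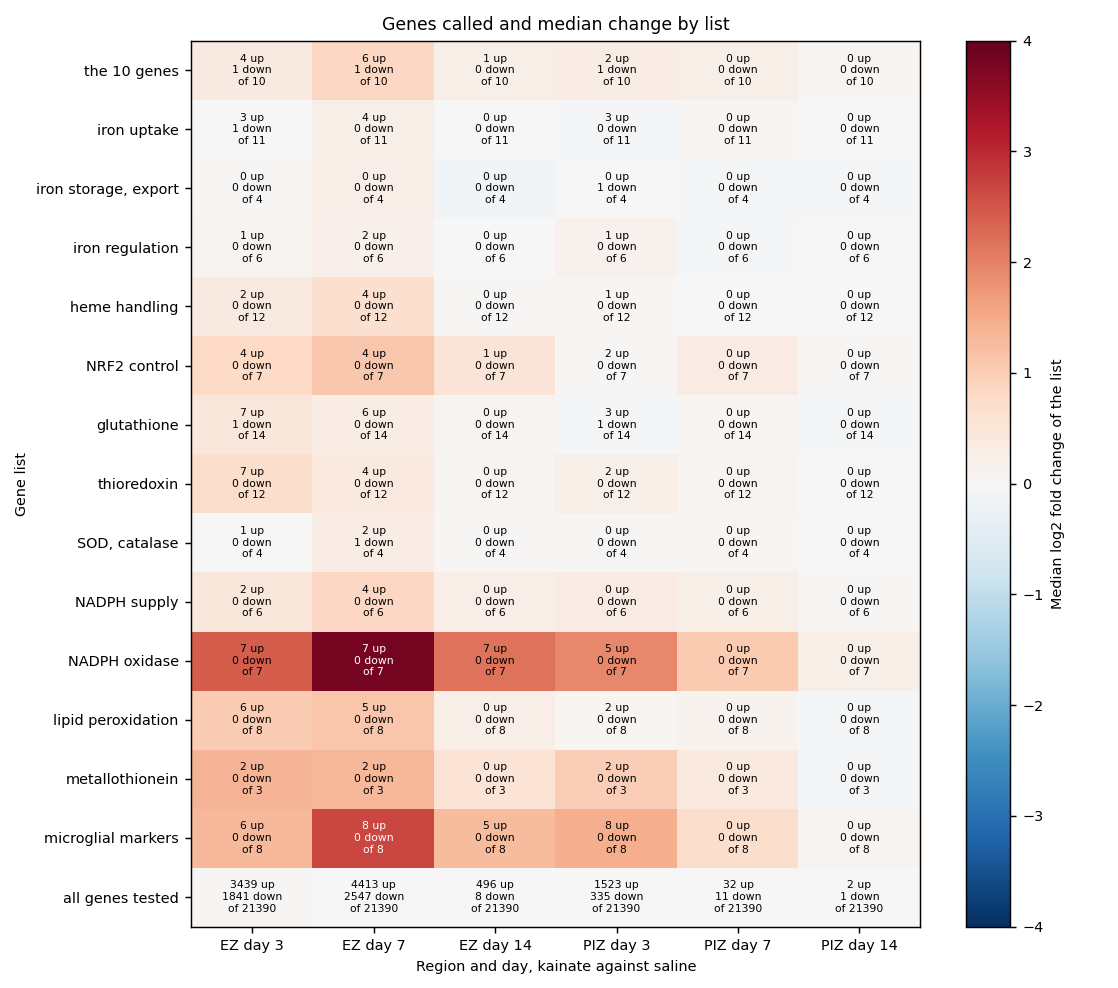
Number of genes up and down of those tested in each list (text) and the list's median log2 fold change (color) for kainate against saline by region and day; the bottom row gives all genes. The NADPH oxidase list has all 7 genes up in the EZ at each day, and no list has a DEG in the PIZ at day 7 or day 14.

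The wider iron and redox pathway was followed with 99 other genes in 12 lists, of which 94 were tested. In the EZ 42 were upregulated and 2 downregulated at day 3 (median log2 fold change 0.48 beside 0.03 over all genes), and 44 and 1 at day 7 (0.65 beside 0.01). The day 3 PIZ had 21 upregulated and 2 downregulated. Over all genes tested, the shares called higher and lower were 16.1% and 8.61% in the EZ at day 3, 20.6% and 11.9% at day 7, and 7.12% and 1.57% in the day 3 PIZ; the list counts that follow are to be read beside these shares. At day 14, 8 genes were upregulated in the EZ (2.32% of all genes), 7 of them in the NADPH oxidase list, and none was called without mouse 24, 27, 28, 31 or 39 or by limma-voom with or without weights. In the PIZ at day 7 and day 14 none was called by edgeR, DESeq2 or limma-voom without weights, with 18 and 6 of the 94 at an unadjusted p under 0.05 (14.5% and 5.97% of all genes), and weighted limma-voom called 7 and none. The share of all genes called by weighted limma-voom is not given.

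In iron uptake, Trf, the gene of the iron carrier transferrin, and Steap3, which reduces iron in endosomes, were upregulated in the EZ at day 3 (log2 fold changes 1.81 and 1.16), in the EZ at day 7 (2.41 and 1.53) and in the PIZ at day 3 (1.95 and 1.39). Slc39a8, a metal importer, was upregulated in the same comparisons (1.16, 1.48 and 0.81), Slc39a14, another importer, in the EZ at day 7 (0.63), and Tfr2, the second transferrin receptor, was downregulated in the EZ at day 3 (-1.16). These were 3 of 11 genes higher in the EZ at day 3 and 4 at day 7, beside 16.1% and 20.6% of all genes. Of the 4 further storage and export genes tested, none was called in the EZ by edgeR, with 1, 2 and none at an unadjusted p under 0.05 at day 3, 7 and 14. Pcbp1, an iron chaperone, had a log2 fold change of 0.25 in the day 3 EZ and -0.03 in the day 3 PIZ. Heph, a membrane ferroxidase, was downregulated in the PIZ at day 3 (-0.62), and Ncoa4, which carries ferritin to lysosomes, had a log2 fold change of 0.39 in the EZ at day 7. Among 6 iron regulators, Hfe, a partner of the transferrin receptor, was upregulated in the EZ at day 3 (1.58) and day 7 (2.22) and in the PIZ at day 3 (1.64), and Bmp6, an upstream signal for hepcidin, in the EZ at day 7 (1.30). Fbxl5, which targets an iron regulatory protein for degradation, was at -0.44 in the day 3 EZ, below the fold threshold. In the day 3 PIZ Fbxl5 was at -0.26 and passed neither threshold (edgeR adjusted p = 0.0313). Aco1, the gene of iron regulatory protein 1, was below the fold threshold at 0.51 in the EZ at day 7.

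In heme handling, Lrp1, the receptor that clears heme bound to hemopexin, was upregulated in the EZ at day 3 (0.83) and day 7 (0.99) and in the PIZ at day 3 (0.65). Blvrb, a biliverdin reductase that acts after heme oxygenase, was upregulated in the EZ (0.996 at day 3 and 1.26 at day 7), as were Blvra (0.59) and the heme carrier gene Flvcr2 (0.72) at day 7. Of 7 genes that control NRF2 signaling, 4 were upregulated in the EZ at both day 3 and day 7. Nfe2l2, the NRF2 gene itself, had log2 fold changes of 1.42 and 2.27, and Bach1, the repressor of Hmox1, 1.12 and 1.33. Maff (3.55 and 3.74) and Mafk (0.81 and 1.08), which encode small MAF partners of both factors, were the other two. In the PIZ at day 3 Nfe2l2 (1.22) and Bach1 (0.93) were upregulated, and in the EZ at day 14 Maff alone was (2.62).

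In glutathione metabolism 7 of 14 genes rose and 1 fell in the EZ at day 3 (16.1% and 8.61% of all genes), and 6 rose at day 7 (20.6% of all genes). Gsr, which recycles glutathione, was upregulated at day 3 (0.75), and Mgst1 (1.66), a microsomal transferase, and Gpx8 (2.26) at day 7. Gclc, the rate-limiting enzyme of glutathione synthesis, had a log2 fold change of -0.42 in the day 3 EZ and -0.35 in the day 3 PIZ, with adjusted p of 3.59e-06 and 1.40e-04 by edgeR but below the fold threshold. On the PIZ side at day 3 Gpx7 (0.88), Gpx8 (1.29) and Mgst1 (1.22) rose and Gsta4 fell (-0.67). In the thioredoxin system 7 of 12 genes rose at day 3, among them Txn1 (0.73) and the sulfiredoxin gene Srxn1 (1.02), and 4 at day 7, the peroxiredoxin genes Prdx1 (1.14), Prdx4 (1.87) and Prdx6 (1.68) and the thioredoxin inhibitor Txnip (1.55). Prdx6 (1.37) and Srxn1 (0.80) also rose in the PIZ at day 3.

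Of 4 superoxide dismutase and catalase genes, Sod3, the extracellular enzyme, rose in the EZ at day 3 (0.96) and day 7 (1.59), Cat rose at day 7 (0.65) and Sod2, the mitochondrial enzyme, fell at day 7 (-0.60). In the day 3 EZ Sod2 was at -0.51, below the fold threshold (edgeR adjusted p = 1.41e-04). In the PIZ at day 3 Sod2 (-0.45) and Cat (0.46) were not called. There too the edgeR adjusted p passed (0.00185 and 0.00197) and the fold change did not. The NADPH-producing enzymes of the pentose phosphate pathway, G6pdx and Pgd, rose in the EZ at day 3 (0.97 and 1.03) and day 7 (1.01 and 1.27), where Taldo1 (0.66) and Idh1 (0.98) rose as well. In the day 3 PIZ G6pdx was at 0.58, a 1.496-fold change just below the threshold (edgeR adjusted p = 4.44e-04). Taldo1 was at 0.34 there and not called (edgeR adjusted p = 0.0244). The NADPH oxidase list, which holds genes of the superoxide-making phagocyte enzyme and the separate oxidase gene Nox4, had the largest median change of the 12 lists in the EZ. All 7 genes rose at day 3 and day 7, with medians of 2.43 and 3.84, beside 16.1% and 20.6% of all genes called higher. Ncf4, another subunit, had a log2 fold change of 3.21 at day 3, and Cyba, the membrane partner of Cybb, one of 3.76 at day 7. Nox4, chosen for mention after its values were seen, had log2 fold changes of 3.48 and 3.87. Cybb, the catalytic subunit of the phagocyte enzyme, measured 7.58 to 53.6 CPM in the kainate EZ against 0.75 to 1.41 CPM in saline at day 3 (log2 fold change 4.63), and 9.28 to 86.5 against 0.188 to 1.08 CPM at day 7 (6.09). Ncf1, a cytosolic subunit, measured 40.7 to 160.3 CPM against 5.72 to 7.28 CPM at day 7 (3.84). Of the 7, 5 rose in the PIZ at day 3, with Rac2 at 3.16 and Ncf1 at 2.45.

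Among 8 genes of lipid peroxidation and ferroptosis tested, 6 rose in the EZ at day 3 and 5 at day 7, beside 16.1% and 20.6% of all genes. Alox5ap, the activating protein of 5-lipoxygenase, had log2 fold changes of 2.02 and 2.85, and 1.91 in the PIZ at day 3. Ptgs2, the inducible cyclooxygenase gene, rose at day 3 (1.80), and Lpcat3, which places polyunsaturated fatty acids in phospholipids, at day 7 (1.16) and in the PIZ at day 3 (0.69). The metallothionein genes Mt1 and Mt2, whose products bind zinc and copper, rose in the EZ at day 3 (1.35 and 1.93) and day 7 (1.33 and 1.90) and in the PIZ at day 3 (0.98 and 1.31). For 20 of the 94 genes the kainate effect at day 7 was larger in the EZ than in the PIZ, beside 7% of all genes, and for none smaller.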

How the data were processed

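The authors trimmed paired-end reads of stranded poly-A libraries with fastp 0.20.1, aligned them to GRCm39 with HISAT2 2.2.1 and deposited whole-number counts per gene from featureCounts (Subread 1.6.4), made with the strand, keeping the primary alignment of reads that map to several places and allowing overlapping features. Reads from near-identical copies can therefore fall on any copy. Of 55357 gene identifiers, 54749 matched the Gencode M39 annotation used here, which is newer than the M28 release the authors counted on. Counts were fitted with edgeR 4.0.16 (TMM, filterByExpr over 12 groups, 1 mean per group), and log2 CPM used a prior count of 2. In simulated counts for the EZ at day 3 with 200 changed genes, 61 of 96 genes changed 2-fold and 84 of 97 changed 4-fold were called, in a fit of 20938 genes. EZ and PIZ libraries are paired by mouse, and residuals of a mouse's libraries correlated at -0.0536 to 0.376. Alternatives were DESeq2 1.42.0, limma-voom with sample weights (limma 3.58.1) and, added after seeing the data, without them, RLE size factors, no filter, compared groups alone, an adjusted p of 0.05, mouse as a replicate block, copies summed (blastn 2.17.0) and each mouse left out. The 10 genes and all lists were chosen with earlier results of these data known. From each wider list the 2 genes with the lowest p in the EZ at day 3 and 7 and the PIZ at day 3 were named. For some lists with 5 or fewer called genes, all of the called genes were named. The edgeR p-values rest on the spread among libraries within groups, pooled over the 12 groups, and each group holds different mice. Without the mouse block, the EZ and PIZ libraries of a mouse were treated as independent.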

Additional observations from a re-analysis of the deposited data

Results flagged for a closer look

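Within groups of 4 libraries, 10 of the 120 gene and group combinations held a library that stood far from the other 3 by Dixon's test, 6 high and 4 low, where chance gives about 1 in 20. Of these, 5 came from a single EZ library, that of kainate mouse 27 at day 14. It held 30.86 CPM of Hmox1 where the other 3 held 5.79 to 9.11, 404.2 of Ftl1 (others 117.5 to 159.8), 24.47 of Slc40a1 (11.7 to 13.2), 43.46 of Cp (12.5 to 14.5) and 84.83 of Gpx1 (31.4 to 38.97). The summed microglial markers of this group ran from 527 to 3251 CPM, and their part in these values was not tested.

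Saline mouse 18 stood apart in the EZ at day 3, with 188.3 CPM of Tfrc (others 126.6 to 136.3) and 44.1 CPM of Slc7a11 (others 58.8 to 60.8). Kainate mouse 21 held 4.617 CPM of Hmox1 in the PIZ at day 7 (others 7.76 to 8.36), kainate mouse 40 held 11.6 CPM of Slc40a1 in the PIZ at day 14 (others 13.1 to 13.2), and kainate mouse 44 held 129.4 CPM of Gpx4 in the EZ at day 3 (others 135.8 to 136.4).

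The kainate effect at day 7 differed between EZ and PIZ by edgeR's test of the difference for Hmox1 (1.916 on the log2 scale), Ftl1 (1.894) and Gpx1 (1.269). With mouse as a replicate block the Gpx1 difference was no longer called.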

How the results depend on the processing

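No value of the 10 genes that passed the test changed direction under the alternatives run. Some that did not pass crossed 0 when a mouse was left out, such as Slc40a1 in the EZ at day 14 (-0.16 to 0.27). Counts of the 10 genes called shifted under several alternatives. The share of all genes called under each alternative is not given, so these counts show shifts only and are not set against their own background. By DESeq2, 1 was called for the EZ effect at day 7 against day 3 and 2 for day 14 against day 7. By limma-voom with sample weights, 0 were called in the EZ at day 14, 2 in the PIZ at day 7, 3 and 5 for the EZ against the PIZ effect at day 3 and day 7, and 2 and 6 for the successive steps in the EZ; of the wider genes it called 0 in the EZ at day 14 and 7 in the PIZ at day 7. Without the weights, a fit chosen after seeing the data, limma-voom called 0 in the EZ at day 14, 1 in the PIZ at day 3 (Gpx1), 0 in the PIZ at day 7 and 0 for the EZ steps, and 0 wider genes in the EZ at day 14. With the compared groups alone, 0 were called in the EZ at day 14, 5 in place of 7 in the EZ at day 7 (Tfrc and Slc40a1 lost), 4 in place of 3 in the PIZ at day 3 (Ftl1 gained) and 2 in place of 3 for the EZ against PIZ effect at day 7 (Gpx1 lost). At an adjusted p under 0.05 the EZ against PIZ count at day 7 was 5, and the steps in the EZ gave 1 and 4. With mouse as a replicate block, 3 genes were called at day 7, Hmox1 (1.84) and Ftl1 (1.69) as before and Cp (1.47) in place of Gpx1, whose call was lost (1.15); 0 were called in the other EZ against PIZ tests, as without the block, with no other call changed. Leaving out each mouse gave 5 to 6 genes in the EZ at day 3, 7 to 7 at day 7 and 0 to 1 at day 14, 1 to 3 in the PIZ at day 3 and 0 to 1 at day 7, 0 to 5 for the EZ against PIZ effect at day 7 and 0 to 5 for the EZ step from day 7 to day 14. In the EZ at day 14 it gave 0 to 12 wider genes and 0 to 7 NADPH oxidase genes. The cause of these shifts was not tested. With 4 mice a group, smaller changes than those called may have been missed.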
